A study of Mus musculus with 2 samples.

Results

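Levels of 43 cell cycle genes were compared between 2 RNA-seq libraries of mouse macrophages, 1 treated with the vehicle DMSO and 1 with GW3965. The genes were taken by symbol from a list of cyclins, cyclin-dependent kinases, their inhibitors, retinoblastoma and E2F family members, and replication and mitosis genes, and all 43 were found among the 50608 rows of the deposited table. GW3965 activates the liver X receptors (LXRs), which are nuclear receptors for oxidised forms of cholesterol. Per the labels, both libraries came from peritoneal macrophages, phagocytes of the abdominal cavity, of C57BL6J mice, with males and females pooled and the developmental stage given as E15.5. The libraries differ in the labels by the agent alone, with dose, duration and number of pooled animals not given in the sources used here. Cholesterol efflux and a long noncoding RNA are the subject of the title, and its design text sets DMSO against the LXR agonist. With 1 library per group no difference has a replicate check, so no p-value is given.

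A dividing cell passes from growth (G1) through DNA synthesis (S) to mitosis (M). D-type cyclins with Cdk4 or Cdk6, and later cyclin E with Cdk2, phosphorylate the retinoblastoma family of pocket proteins. This releases E2F transcription factors, which turn on genes of DNA replication, and mitotic genes follow later in the cycle. Inhibitors of the Ink4 family (Cdkn2a, Cdkn2c, Cdkn2d) block Cdk4 and Cdk6, and those of the Cip/Kip family (Cdkn1a, Cdkn1b, Cdkn1c) act on cyclin-kinase complexes more broadly. Mature tissue macrophages rest outside the cycle for most of the time, but they can divide locally.

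The libraries had 101866062 (DMSO) and 75287120 (GW3965) reads, recovered from the steps of the deposited values. Values are FPKM, fragments per kilobase of gene scaled to depth, so levels of different genes can be set side by side. A gene was counted as measured at a mean of at least 1 FPKM, which 11889 rows reached. FPKM was higher in the GW3965 library in 93.6% of these rows, with a median log2 of (GW3965 FPKM + 1)/(DMSO FPKM + 1) of 0.24, so differences on this scale are given relative to that median and called centred. A gene counted as higher or lower at 1.5-fold, a centred log2 ratio of 0.585. Ratios of FPKM with nothing added are given with a 95% counting interval and are to be read against the median ratio of 1.25 over measured rows, not against 1. The column read as GW3965 matches that sample's description in its opening letters only. In it all 6 listed LXR targets were higher, with centred log2 ratios from 1.49 (Abcg1) to 3.40 (Abca1). Of 10 general macrophage markers 9 were measured, with Lyz2 at 4053 and 4822 FPKM and Emr1 (F4/80) at 29.3 and 35.9 FPKM. None of 6 markers of resident peritoneal macrophages was measured, and Gata6 had 0.607 and 0.618 FPKM. Rows of 1083 olfactory receptor genes, taken as mostly silent outside sensory tissue, had 95th percentiles of 0.0812 FPKM in DMSO and 0.160 FPKM in GW3965. These percentiles served as the level of stray reads. Of the olfactory rows 1 was measured, and the highest values were 7.06 FPKM in DMSO and 8.48 FPKM in GW3965.

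Levels differed far more between classes of genes than between the libraries. The 12 mitotic genes lay at medians of 0.283 FPKM in DMSO and 0.337 FPKM in GW3965, and none of them was measured. The 10 replication genes had medians of 1.73 and 2.06 FPKM, 6.10 and 6.11 times those of the mitotic genes. The 7 pocket protein and E2F genes had medians of 4.49 and 4.77 FPKM, and the 6 inhibitors 4.25 and 4.87 FPKM. Of the 43 genes 23 were measured, 20 were not, and 42 lay above the olfactory level in both libraries. Of all 50608 rows 23169 lay above that level in both, and of 19783 protein-coding rows 11387 did. Cdkn1c alone held 60.7% of the summed FPKM of the 43 genes in DMSO and 49.5% in GW3965.

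**Figure D1:**
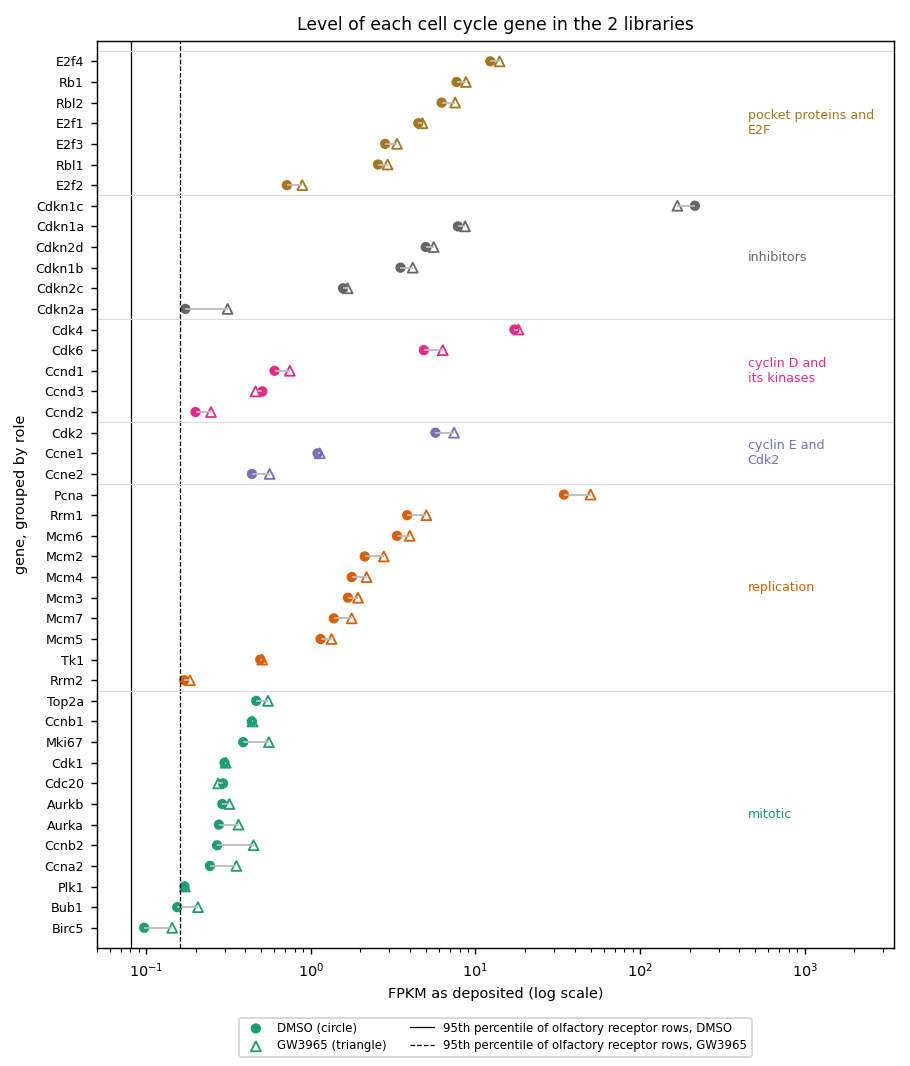
Level of each of the 43 genes in FPKM (log scale), with a filled circle for the DMSO library and an open triangle for the GW3965 library, coloured by role; vertical lines give the 95th percentiles of the olfactory receptor rows. Mitotic genes sit between 0.097 and 0.556 FPKM, while Cdkn1c stands at 215 and 168 FPKM.

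Between the libraries, 1 of the 23 measured genes was lower by 1.5-fold after centring and none was higher. The lower gene was Cdkn1c. Over all measured rows 0.336% were lower and 1.38% higher by the same rule. As deposited, none of the 23 was past the limit, against 3.46% of measured rows higher and 0.0757% lower. The median centred log2 ratio of the 23 genes was -0.07, against 0 for all measured rows by construction, and values other than that of Cdkn1c ran from -0.22 (Ccne1) to 0.28 (Pcna). Of the 23 genes 18 lay below the median of all measured rows, as 50% of rows do, although with FPKM as deposited 40 of the 43 genes were higher in GW3965 (87.8% of all rows were) and only Cdkn1c, Ccnd3 and Cdc20 lower. The counting interval of the ratio lay wholly above 1.25 for 3 of the 23 measured genes (Pcna, Rrm1 and Cdk6) and wholly below it for 9, where 24.2% and 35% of 8686 measured protein-coding rows did, so neither count stands out. Of the 20 unmeasured genes it lay above for Mki67 and below for Ccnd3, where 16.8% and 8.82% of 3570 protein-coding rows from 0.1 to 1 FPKM did. Adding 1 FPKM pulls the ratio of a low gene towards equality, and centring by 0.24 then puts it below 0. Centred values of low genes are therefore shifted downward and can have the wrong sign. Protein-coding rows from 0.1 to 1 FPKM had a median centred value of -0.16. Mki67 had -0.08, although the interval of its plain ratio lay above 1.25. The intervals cover the error of counting reads and not the spread between animals or cultures.

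**Figure D2:**
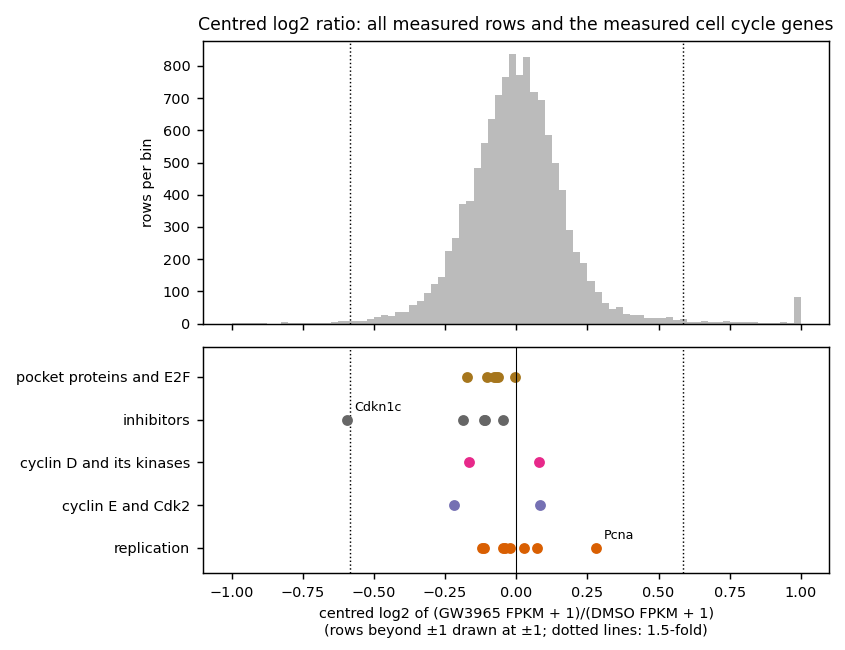
Centred log2 ratio (GW3965 over DMSO, 1 FPKM added) of the 11889 measured rows as a histogram, and of the 23 measured cell cycle genes as points by role. Cdkn1c lies just past the lower 1.5-fold line and Pcna at 0.28; the other 21 points sit within 0.22 of 0.

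Mitotic genes were at the foot of the range in both libraries. Top2a, the topoisomerase that untangles chromosomes before they separate, had 0.466 and 0.550 FPKM (DMSO first, here and in all pairs that follow), from 429 and 374 reads. Mki67, which codes for the Ki-67 protein used as a marker of dividing cells, had 0.389 and 0.556 FPKM, from 412 and 436 reads. Its ratio of 1.43 (1.25 to 1.64) was the only one of the 12 whose counting interval cleared the median ratio of measured rows. The margin was narrow, with a lower bound of 1.2486 from estimated reads against a median of 1.2465. The interval included 1.34, the median ratio of protein-coding rows from 0.1 to 1 FPKM. Ccnb1 and Cdk1, the cyclin and the kinase that together drive entry into mitosis, had ratios of 1.01 (0.784 to 1.30) and 1.01 (0.819 to 1.26). Ccnb2, the second B-type cyclin, had 0.270 and 0.449 FPKM, the largest ratio of the class at 1.67, with an interval of 1.07 to 2.61 from 39 and 48 reads. The lowest ratio belonged to Cdc20, an activator of the ubiquitin ligase that ends mitosis, at 0.293 and 0.274 FPKM and 0.935 (0.601 to 1.44).

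The remaining mitotic genes gave no clearer difference. Aurka and Aurkb, the Aurora kinases of the spindle and of chromosome attachment, had ratios of 1.32 and 1.10, and Bub1, a kinase of the spindle checkpoint, 1.34. Plk1, the polo-like kinase needed for spindle formation, had 0.171 and 0.172 FPKM. Ccna2, the cyclin of S phase and G2, had 0.244 and 0.353 FPKM, and 12.5% of its annotated exon bases are shared with Exosc9 on the opposite strand. Birc5 (survivin), a subunit of the chromosomal passenger complex, was the lowest of the 43 at 0.0973 and 0.144 FPKM, above the olfactory level in DMSO and below it in GW3965. Summed over the 12 genes there were 1697 and 1547 reads, a depth-scaled ratio of 1.23 (1.15 to 1.32), and 11 of the 12 genes had the higher FPKM in GW3965. Among 3574 protein-coding rows from 0.1 to 1 FPKM, 86.5% were higher in GW3965, with a median ratio of 1.34 and quartiles of 1.12 and 1.62. The median ratio of the 12 mitotic genes was 1.25. Single genes lay on both sides of those quartiles, with Ccnb1, Cdk1, Plk1, Cdc20 and Aurkb under the lower and Ccnb2 over the upper. The olfactory receptor rows themselves had medians of 0.0261 and 0.0690 FPKM, and the part of such stray reads in ratios of genes this low was not tested.

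Promoter stretches of 2 mitotic and 2 replication genes are shown because these classes are known to be switched on at set times of the cycle through promoter elements. Known elements in them are the CCAAT box, bound by NF-Y, the cell cycle homology region (CHR), through which the MuvB complex acts, and the E2F site. RefSeq promoters on GRCm38.p6 were given for 34 of the 43 genes. The letters searched on both strands in the 250 bases before each start site were CCAAT for the box, TTTGAA for the CHR and TTTNGCGC for E2F. CCAAT was found for 9 of 10 mitotic and 8 of 9 replication genes, against 37.5% of 27025 genes. TTTGAA was found for 5 of 10 mitotic genes (Ccnb2, Cdc20, Cdk1, Mki67 and Top2a), 1 of 9 replication genes (Mcm2), and 18.3% of all genes. TTTNGCGC was found for 1 of 10 mitotic genes (Cdk1), 2 of 9 replication genes (Mcm5 and Mcm6), and 1.31% of all genes. Of 5 pocket protein and E2F genes with an entry 3 held TTTGAA (E2f2, E2f3 and Rbl2), while none of 3 cyclin D and kinase genes, 5 inhibitors or 2 cyclin E and Cdk2 genes did. The genes shown were picked by name. All of them hold CCAAT together with TTTGAA or TTTNGCGC, which many genes of their classes do not. A match describes letters and not binding.

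The stretches below run 5′ to 3′ on the gene's strand and end at or just before the start site, with matches to any of the 3 motifs in capitals, whichever strand they lie on.
Ccnb2 (chr9:70421555-70421704, minus strand): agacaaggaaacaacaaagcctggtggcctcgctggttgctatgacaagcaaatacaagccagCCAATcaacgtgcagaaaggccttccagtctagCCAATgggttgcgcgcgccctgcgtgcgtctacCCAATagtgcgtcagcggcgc
Cdc20 (chr4:118437353-118437493, minus strand): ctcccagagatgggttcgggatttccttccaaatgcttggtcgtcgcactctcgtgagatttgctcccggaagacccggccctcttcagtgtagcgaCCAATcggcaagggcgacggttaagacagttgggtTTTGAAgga
Mcm5 (chr8:75109359-75109508, plus strand): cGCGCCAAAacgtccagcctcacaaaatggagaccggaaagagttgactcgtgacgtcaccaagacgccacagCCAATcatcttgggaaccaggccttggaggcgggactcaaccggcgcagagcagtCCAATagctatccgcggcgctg
Mcm6 (chr1:128359706-128359855, minus strand): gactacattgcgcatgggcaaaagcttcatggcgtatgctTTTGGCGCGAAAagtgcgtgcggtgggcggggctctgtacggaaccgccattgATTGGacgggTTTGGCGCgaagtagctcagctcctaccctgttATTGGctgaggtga
In Ccnb2 there were 3 CCAAT boxes, starting 87, 54 and 21 bases before the start site and so 33 bases apart, while in Cdc20 a CCAAT box and a TTTGAA lay 53 and 18 bases before it. The stretch shown for Ccnb2 holds no TTTGAA, so the match counted for that gene lies outside it. The first capitals in Mcm6 hold 2 overlapping E2F matches on opposite strands.

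Replication genes were several times higher than mitotic genes, and their ratios ran from 1.03 (Tk1) to 1.45 (Pcna), on both sides of the median of measured rows. The 6 subunits of the Mcm helicase, which unwinds DNA at the fork, ran from 1.15 (Mcm5) to 3.34 (Mcm6) FPKM in DMSO and from 1.34 to 3.99 FPKM in GW3965. Both extremes of the complex were the same genes in the 2 libraries. Mcm4 had 1.77 and 2.18 FPKM. Ratios of the 6 ran from 1.15 (Mcm3) to 1.30 (Mcm2), and each of the 6 counting intervals included 1.25. Mcm2, for example, had 2.13 and 2.77 FPKM from 1402 and 1352 reads, a ratio of 1.30 (1.21 to 1.41). Mcm7 shares 7.25% of its exon bases with Ap4m1 on the opposite strand and also holds the microRNAs Mir25 and Mir93.

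Ribonucleotide reductase makes deoxynucleotides from 2 kinds of subunit, and these stood far apart in level. Rrm1, the large subunit, had 3.85 and 5.03 FPKM, with a ratio of 1.31 (1.25 to 1.36) and a centred value of 0.07. Rrm2, the small subunit, whose level peaks in S phase in cycling cells, had 0.170 and 0.184 FPKM, in the range of the mitotic genes. Tk1, the cytosolic thymidine kinase of S phase, was also low, at 0.493 and 0.507 FPKM.

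Pcna, the sliding clamp of DNA polymerase, which also serves in DNA repair, was the highest of the replication genes and had the highest centred log2 ratio of the 43. It lies at chr2:132249162-132253314 on the minus strand of GRCm38 and had 34.5 and 49.99 FPKM from 6406 and 6868 reads. The levels were 20.0 and 24.3 times the median of the Mcm genes. The plain ratio was 1.45 (1.40 to 1.501). Centred, the log2 value was 0.28, short of the 1.5-fold limit and above 95.1% of measured rows. Pcna passed the limit when the libraries were scaled to the same sum of FPKM, at 0.79. Under that scaling, which is not centred, 2604 of the 11889 measured rows were higher by the limit and 1 lower. The median of the measured members was then 0.39. A processed copy elsewhere in the genome, Pcna-ps2 on chromosome 19, had 0.969 and 6.15 FPKM, with a ratio of 6.35 (4.81 to 8.49) and a centred value of 1.62. It held 0.959% of the reads of gene and copy together in DMSO and 4.06% in GW3965, and with its reads added the ratio of Pcna became 1.498 (1.45 to 1.55). The handling of reads that match both was not stated in any label, and the part of the copy in the result for Pcna was not tested.

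**Figure D3:**
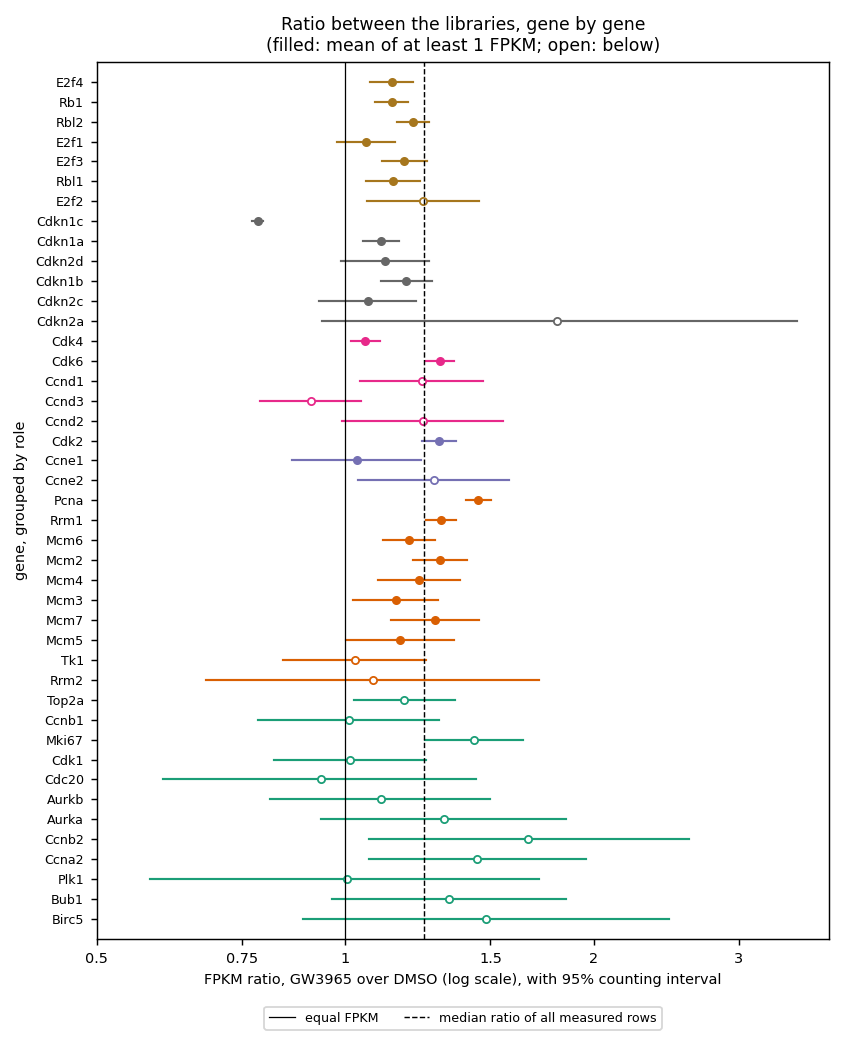
FPKM ratio of GW3965 over DMSO for each gene with its 95% counting interval (log scale), filled where the mean is at least 1 FPKM and open below; the solid line marks equal FPKM and the dashed line the median ratio of measured rows, 1.25. Cdkn1c is the only gene whose interval lies below 1, and intervals of the mitotic genes are wide.

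The kinases of G1 were present at higher levels than their cyclins. Cdk4 stood at 17.2 and 18.2 FPKM. Its ratio of 1.06 (1.02 to 1.10) put it at -0.17 after centring. It stood 57.6 and 60.03 times above Cdk1, but 19.7% of its exon bases are shared with Tspan31 on the opposite strand, a gene at 31.4 and 36.6 FPKM. Cdk6 had 4.86 and 6.33 FPKM and a ratio of 1.30 (1.25 to 1.36), so the centred values of the partner kinases lay on either side of 0, at -0.17 for Cdk4 and 0.08 for Cdk6. With FPKM as deposited both kinases were higher in GW3965, as were 93.6% of measured rows.

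None of the 3 D-type cyclins reached a mean of 1 FPKM. Ccnd1 had 0.603 and 0.746 FPKM, and Ccnd2 0.200 and 0.248 FPKM, with ratios of 1.24 (1.04 to 1.47) and 1.24 (0.993 to 1.55). Ccnd3 went the other way, at 0.508 and 0.462 FPKM from 497 and 334 reads, a ratio of 0.909 (0.789 to 1.05). Its interval lay below the median ratio of measured rows and included 1. Of Ccnd1 exon bases 23.4% are shared with a gene on the opposite strand.

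Of cyclin E and its kinase too, the kinase was the higher in level. Cdk2 had 5.71 and 7.41 FPKM, with a ratio of 1.30 (1.24 to 1.36). Ccne1 had 1.10 and 1.13 FPKM, with a ratio of 1.03 (0.862 to 1.24). Its centred value of -0.22 was the lowest of the measured genes after Cdkn1c. Ccne2 had 0.439 and 0.562 FPKM, and 17.4% of its exon bases are shared with Ints8 on the opposite strand.

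Among the inhibitors, Cdkn1c stood apart in both level and ratio. Cdkn1c codes for the Cip/Kip inhibitor p57, is imprinted with expression from the maternal copy, and lies at chr7:143458339-143461050 on the minus strand of GRCm38. Its level was 215 FPKM with DMSO and 168 with GW3965, from 42216 and 24440 reads. It ranked 89th of all 50608 rows in DMSO and 135th in GW3965, and stood 27.5 and 19.5 times above Cdkn1a. The ratio was 0.783 (0.771 to 0.796), where 6.44% of measured rows had any lower FPKM in GW3965, and the centred log2 ratio was -0.59.

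More exactly it was -0.594 against a limit of 0.585, with 36 of the other measured rows at or below it. Of the 208 rows with a mean of at least 100 FPKM, a level chosen after the values were seen, 8 were lower by 1.5-fold and 7 of these lay below Cdkn1c. Among them 185 are protein-coding, and of these Cdkn1c alone was lower by that limit. The call depended on the scaling. Cdkn1c was not past the limit as deposited (-0.35), at an equal FPKM sum (-0.08), centred on rows with ordinary gene names (-0.582), or with the olfactory median subtracted (-0.584), and its sign was negative under each. GENCODE M21 places a noncoding gene, Gm44732, on the opposite strand over 30.7% of its exon bases.

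Genes beside Cdkn1c, also looked at after its values were seen, did not share its level. Phlda2 and Slc22a18, which belong to the same imprinted cluster, had 0.0308 and 0.0417 FPKM and 0.406 and 0.350 FPKM. Kcnq1, the potassium channel gene on its other side, had 0.320 and 0.334 FPKM. Nap1l4 and Cars, further along the chromosome, had 11.7 and 13.4 FPKM and 7.59 and 8.88 FPKM, with centred log2 ratios of -0.06 and -0.04. The ratio of Slc22a18, 0.861 (0.589 to 1.25), rests on 77 and 49 reads.

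**Figure D4:**
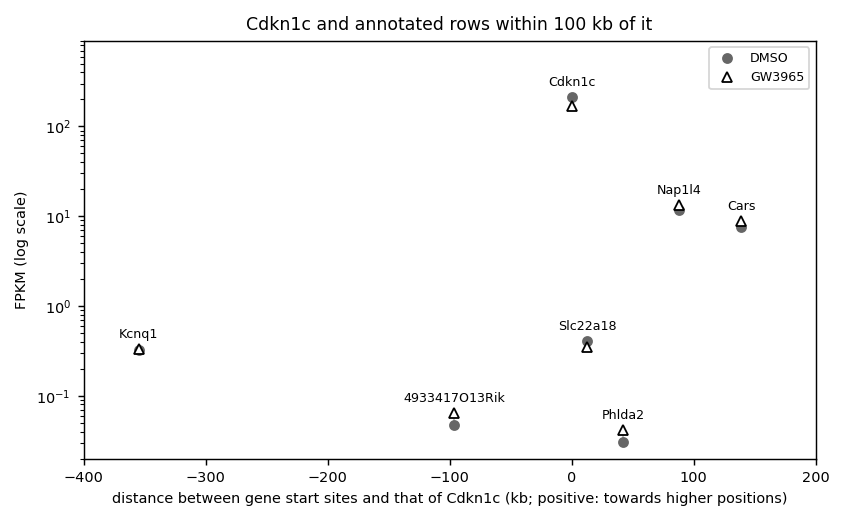
FPKM (log scale) of Cdkn1c and of annotated genes that lie within 100 kb of it, against the distance between their start sites and that of Cdkn1c in kb, with circles for DMSO and triangles for GW3965. Cdkn1c is the highest of the 7 genes in both libraries, and next to it comes Nap1l4 at 11.7 and 13.4 FPKM.

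The other inhibitors had small differences. Cdkn1a (p21), a target of p53, had 7.82 and 8.65 FPKM, with a ratio of 1.11 (1.05 to 1.16). Cdkn1b (p27) had 3.50 and 4.16 FPKM, with a ratio of 1.19 (1.10 to 1.28). Of the Ink4 genes, Cdkn2d had 4.99 and 5.58 FPKM and Cdkn2c 1.57 and 1.67 FPKM. Their centred log2 ratios were -0.11 and -0.19. Cdkn2a, which codes for both p16 and the unrelated Arf protein, was at 0.173 and 0.312 FPKM from 18 and 24 reads. It had the largest ratio of the 43 genes, 1.80, with an interval of 0.939 to 3.53 that included both 1 and 1.25. All 5 measured inhibitors lay below the median of measured rows, by 0.05 to 0.59, as 50% of measured rows do. As deposited 4 of these 5 were higher in GW3965, as were 93.6% of measured rows.

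The 6 measured pocket protein and E2F genes lay below the median of measured rows, as 50% of those rows do. The counting intervals of E2f3 and Rbl2 included the median ratio of measured rows. Rb1, the retinoblastoma protein itself, had 7.68 and 8.75 FPKM, and its relatives Rbl2 (p130), prominent in resting cells, and Rbl1 (p107), prominent in cycling cells, had 6.23 and 7.53 FPKM and 2.56 and 2.93 FPKM. E2f4, which works with the pocket proteins as a repressor in resting cells, was the highest E2F gene at 12.3 and 14.0 FPKM. It stood 2.74 and 2.94 times above the activator E2f1, which had 4.49 and 4.77 FPKM. The activator E2f3 had 2.83 and 3.34 FPKM, and E2f2 0.715 and 0.888 FPKM. The 6 measured genes had centred log2 ratios from -0.17 (E2f1) to -0.005 (Rbl2). As deposited all 7 were higher in GW3965, by ratios of 1.06 to 1.24, and 87.8% of all rows were higher. Each gene kept its place in the order of levels in both libraries.

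Mitotic genes were then set against the 3 cyclin D and 6 inhibitor genes. Over all members, the median centred log2 ratio was -0.18 for the 12 mitotic genes and -0.12 for the 9 others, a difference of -0.06 (mitotic minus the others). On the plain ratio the order was the reverse, with medians of 1.25 and 1.12. Adding 1 FPKM shrinks the ratios of the mitotic genes, which all lie below 1 FPKM, towards equality, and the sign of the contrast therefore depended on the scale. Centring then sets such low genes below 0, and protein-coding rows from 0.1 to 1 FPKM had a median centred value of -0.16. The ranges of the plain ratio overlapped, from 0.935 to 1.67 for mitotic genes and from 0.783 to 1.80 for the others. In level, Ccnd2 lay within the range of the mitotic genes and Ccnd1 just above it in both libraries, Ccnd3 just above it in DMSO and within it in GW3965, and 5 of the 6 inhibitors well above it in both.

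Further genes of the cycle, in 7 lists with 139 of 140 entries found, gave no gene higher or lower by 1.5-fold among 80 measured. Over all measured rows 1.38% were higher and 0.336% lower, so a count of 0 does not stand out. Of 35 other mitosis genes 9 were measured, with a median centred log2 ratio of -0.08, and Incenp, a subunit of the passenger complex, had 2.80 and 2.83 FPKM. Bub1b, a spindle checkpoint gene just under the measured level and named after its values were seen, had 1.12 and 0.758 FPKM from 469 and 235 reads. Its ratio of 0.678 (0.577 to 0.795) lay below that of every one of the 43 genes, and its centred log2 value was -0.51. Of 39 other replication genes 25 were measured, with a median of -0.04. In that list Cdt1, which loads the Mcm helicase, was low at -0.31 (3.53 and 3.32 FPKM) and Orc2, of the origin recognition complex, high at 0.21 (4.38 and 6.36 FPKM). The 7 measured MuvB, DP and other E2F genes had a median of 0.12, with Rbbp4, a histone-binding subunit of MuvB, at 0.15 (7.29 and 9.92 FPKM) and Lin37, another subunit, on the other side at -0.24 (3.89 and 3.91 FPKM).

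The p53 targets, to which Cdkn1a belongs, had 14 of 16 measured and a median of 0.01, with the widest spread of the lists. Gadd45a, a stress-induced growth arrest gene, had 12.9 and 21.4 FPKM, with a ratio of 1.66 (1.56 to 1.76) and a centred value of 0.44. Phlda3 and Sesn2 lay at -0.38 and -0.38. In the Myc network Myc itself, the growth-promoting factor, was not measured (0.739 and 0.957 FPKM), and 7 of 11 genes were. Mnt, a repressor that competes with Myc, had 3.88 and 3.30 FPKM, with a ratio of 0.850 (0.789 to 0.916) and a centred value of -0.43. The 12 measured ubiquitin ligase and other control genes had a median of 0.07, with Fzr1, an activator of the anaphase-promoting complex, and Cdkn3, a phosphatase, both at -0.19. The 6 measured checkpoint genes had a median of 0.06, with Atm, the kinase that answers DNA breaks, at 0.19 (2.97 and 4.35 FPKM) and Trp53, which codes for p53, at -0.17 (3.58 and 3.83 FPKM).

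**Figure D5:**
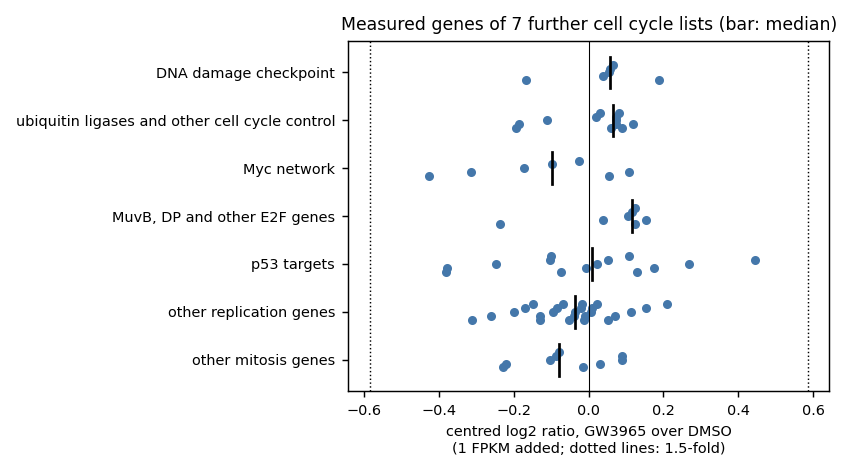
Centred log2 ratio (GW3965 over DMSO, 1 FPKM added) of each measured gene in the 7 further lists, with a bar at the list's median and dotted lines at 1.5-fold. All points lie between the dotted lines, and Gadd45a (0.44) and Mnt (-0.43) are the outermost.

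In bulk RNA, fewer cells of a type and less RNA per cell cannot be told apart. Mesothelial and fibroblast markers had summed levels of 19.7 and 29.4 FPKM over 10 genes, 6 of them measured. All 10 had the higher FPKM in GW3965, as did 87.8% of all rows. Their ratios ran from 1.09 (Col1a1) to 1.81 (Upk3b), on both sides of the median of measured rows, with a median of 1.37. Dcn and Col3a1 were the highest of these, at 6.91 and 11.6 FPKM and at 5.08 and 7.07 FPKM, above every mitotic gene. B cell markers summed to 2.72 and 4.03 FPKM over 5 genes, T and NK cell markers to 0.408 and 0.712 FPKM over 6, mast cell markers to 0.571 and 1.40 FPKM over 4, and neutrophil markers to 3.52 and 3.96 FPKM over 5. Endothelial markers summed to 1.89 and 1.93 FPKM over 3. The summed mitotic genes had 3.39 and 4.14 FPKM. The interval of their depth-scaled read ratio, 1.23 (1.15 to 1.32), included the median ratio of measured rows, 1.25. It lay below 1.34, the median ratio of protein-coding rows from 0.1 to 1 FPKM. Median ratios ran from 1.09 (neutrophil) to 2.50 (mast cell) over these lists of other cells, against 1.25 for the mitotic genes. The part of other cells in the mitotic sums was not tested. No marker of any of these lists was at 0 in either library, but only 2079 (DMSO) and 833 (GW3965) of all 50608 rows were. Above the olfactory level in both libraries were 10 of 10 mesothelial and fibroblast, 4 of 5 B cell and 3 of 4 mast cell markers. The same held for 2 of 6 T and NK cell, 1 of 5 neutrophil and 1 of 3 endothelial markers.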

How the data were processed

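RNA of 2 libraries, 1 per group, was compared. The authors deposited 1 table of FPKM values per row and library. Of tools, STAR 2.3.0 and HTSeq 0.5.4p3 appear in the submitters' processing notes, as does the build GRCm38; annotation, strand setting and handling of reads with several matches are details not given in the sources used here. Low values of the 2 columns differ by whole-number ratios once 1 depth factor, 1.35, is allowed (96.1% of 29845 low rows, with numbers up to 60, within the rounding of the sixth decimal). GENCODE M21 exon lengths, less 99 bases, then fixed the depths, with 287 rows giving whole reads in both libraries and 0.0427 expected by chance. Reads per gene are those at the whole length nearest to the M21 length at which both libraries give whole reads. That length was 0.751 to 1.41 times M21 for the 43 genes, so these reads are estimates. Counting intervals are exact conditional (Clopper-Pearson), at 95%, and PCR copies are not separated. At 1 kb, 1 read equals 0.00982 FPKM (DMSO) or 0.0133 FPKM (GW3965). The recovery was tested on simulated data.

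The members and gene lists were chosen with earlier results of these data known. Every measured member was named. Unmeasured members were also named where they were highest or lowest of their class, near the olfactory level, or had a counting interval apart from the median ratio. From each further list, names came from the 3 largest absolute centred log2 ratios. Bub1, Aurka, Aurkb, Plk1, Ccna2, Ccnb1, Cdk1, Ccnb2, Cdc20, Rrm2, Tk1, Ccnd1, Myc, Bub1b and the Cdkn1c neighbours were named in addition, after their values were seen. The listed symbol Adgre1 was matched to the row Emr1 through RefSeq synonyms, and 4 listed symbols had no row under their spelling. Alternatives were other pseudocounts, filters, scalings and limits, and subtraction of the olfactory median. The calculations used matplotlib 3.10.9, scipy 1.17.1, pandas 2.3.3 and numpy 2.4.6 under Python 3.11.15.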

Additional observations from a re-analysis of the deposited data

How the results depend on the processing

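No paired analysis was possible because DMSO and GW3965 are single libraries. Of 440 values of single genes under 11 alternatives, 434 stayed on their side of the limit, 5 lost it (all Cdkn1c) and 1 gained it (Pcna, same sum of FPKM). None changed direction past the limit, but 100 lay on the other side of 0, 35 of them as deposited and 37 with the same sum. The count of members lower, 1, was 0 as deposited, with the same sum, centred on rows with ordinary gene names, at 2-fold, and with the olfactory median subtracted. The count of members higher, 0, was 1 with the same sum. The median of the measured members, -0.07, was 0.17 as deposited and 0.39 with the same sum. The contrast of mitotic minus cyclin D and inhibitor genes, -0.06, was 0.075 with a pseudocount of 0.1, 0.11 with the same upper quartile and 0.16 with nothing added, a scale chosen after seeing the data. At a mean of at least 5 FPKM it had no value, since no mitotic gene was left. Leaving out Cdkn1c, also chosen then, gave -0.07 for the median and -0.06 for the contrast. Over all rows, against 164 higher, there were 264 with a pseudocount of 0.1, 94 at 5 FPKM, 411 as deposited, 2604 with the same sum, 80 at 2-fold and 279 with nothing added. Against 40 lower, the same settings gave 114, 19, 9, 1, 3 and 125, while a pseudocount of 0.5 gave 62 and no filter 105. For shifts of the median and the counts beyond what fewer rows, a stricter limit or another centre produce, the cause was not tested. Depth limits the mitotic genes, whose reads run from 26 (Plk1, GW3965) to 436 (Mki67, GW3965).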
